A study of Mus musculus with 12 samples.

Results

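The genes described here are 10 members of the CXC chemokine system, chosen by symbol from the 27998 gene rows of each count matrix. They are 8 ligands (Cxcl1, Cxcl2, Cxcl9, Cxcl10, Cxcl12, Cxcl13, Cxcl14 and Cxcl16) and 2 receptors (Cxcr4 and Ackr3). Every member was found in all 12 matrices. The libraries came from the fourth mammary glands of female C57BL/6J mice aged 43 weeks, with 1 library per treatment, made from dissociated cells after the lymph nodes had been taken out. How many animals went into a library is not given in the sources used here. The Intact library came from mice that kept their ovarian follicles. The other 11 came from mice given 4-vinylcyclohexene diepoxide (VCD), which destroys ovarian follicles, at 160 mg/kg/day for 15 days. Of these, 9 form a full layout of hormone by polybrominated diphenyl ethers (PBDEs). The hormone was vehicle, estradiol (E2, 1 µg per animal per day) or E2 with progesterone (P4, 1 mg per animal per day) for 1 week. The PBDE mixture was absent, low (PBDE-47 at 0.05 mg/kg/day for 20 weeks) or high (1 mg/kg/day for 1 week), so that dose and duration cannot be told apart. The no-hormone libraries were VCD_Vehicle, VCD_Low_PBDE and VCD_High_PBDE, the E2 libraries VCD_E2, VCD_Low_E2 and VCD_High_PBDE_E2, and the E2 + P4 libraries VCD_E2_P4, VCD_Low_E2_P4 and VCD_High_PBDE_E2_P4. The last 2 libraries were VCD_Vehicle_NormEnv, a vehicle group set apart by the word NormEnv in its label, and VCD_E2_ICI. In VCD_E2_ICI, E2 was given with a single 5 mg dose of the estrogen receptor degrader ICI. Where values of the 9 libraries are listed below, each hormone group is given in the order no PBDE, low PBDE, high PBDE.

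Chemokines are small secreted proteins that steer leukocytes by binding G protein-coupled receptors, and the CXC family is named for the spacing of its N-terminal cysteines. CXCL1 and CXCL2 draw neutrophils through CXCR2 and are switched on within a short time by inflammatory and stress signals. CXCL9 and CXCL10 draw T and NK cells through CXCR3 and are classic interferon-induced genes, while CXCL13 draws B cells through CXCR5. CXCL12 holds leukocytes and progenitor cells in tissue through CXCR4, and ACKR3 is an atypical receptor that binds and removes CXCL12 without G protein signalling. CXCL16 is made as a transmembrane protein that metalloproteinases can shed, and its receptor is CXCR6. CXCL14 is made constitutively by many epithelia and fibroblasts.

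Gene positions are given on GRCm38 (GENCODE gene records, all protein coding). Cxcl1 (chr5:90891241-90893115, plus strand) and Cxcl2 (chr5:90903871-90905938, plus strand) are close neighbours. Cxcl9 (chr5:92321347-92328079, minus strand) and Cxcl10 (chr5:92346638-92348889, minus strand) are neighbours farther along the same chromosome, which also holds Cxcl13 (chr5:95956951-95961068, plus strand). Cxcl12 lies at chr6:117168535-117181367 on the plus strand, Cxcl14 at chr13:56288643-56296551 on the minus strand and Cxcl16 at chr11:70453983-70459984 on the minus strand. Ackr3 (chr1:90203980-90216751, plus strand) and Cxcr4 (chr1:128588199-128592293, minus strand) share chromosome 1. The 250 bases before the annotated start (RefSeq, GRCm38.p6) were read for 9 of the 10 members, Cxcl16 having no entry in the table, because Cxcl1, Cxcl2, Cxcl9 and Cxcl10 belong to families whose members are known to answer to NF-kB or interferon. The windows of these 4 genes are shown 5′ to 3′ on the gene's own strand. Capitals mark matches to the NF-kB consensus known as the kappaB motif or to the interferon-stimulated response element (ISRE, GAAA on either side of a gap of 2 bases of any kind), searched on both strands.
Cxcl1 (chr5:90890995-90891244): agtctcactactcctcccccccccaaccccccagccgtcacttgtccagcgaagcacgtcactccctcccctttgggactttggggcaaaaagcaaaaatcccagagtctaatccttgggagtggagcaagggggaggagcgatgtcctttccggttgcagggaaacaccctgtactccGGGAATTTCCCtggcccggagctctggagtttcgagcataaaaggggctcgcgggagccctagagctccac
Cxcl2 (chr5:90903649-90903898): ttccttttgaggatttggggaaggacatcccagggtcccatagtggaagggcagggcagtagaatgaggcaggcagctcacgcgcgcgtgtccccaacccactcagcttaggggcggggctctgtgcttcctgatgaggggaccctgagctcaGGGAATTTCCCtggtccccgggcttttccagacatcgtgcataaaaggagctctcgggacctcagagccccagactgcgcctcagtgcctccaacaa
Cxcl10 (chr5:92348890-92349139): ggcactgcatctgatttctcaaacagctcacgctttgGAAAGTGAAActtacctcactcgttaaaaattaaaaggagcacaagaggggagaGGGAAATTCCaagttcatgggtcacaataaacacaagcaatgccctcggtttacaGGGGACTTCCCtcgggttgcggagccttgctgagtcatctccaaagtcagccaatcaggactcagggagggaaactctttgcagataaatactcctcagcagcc
Cxcl9 (chr5:92328080-92328329): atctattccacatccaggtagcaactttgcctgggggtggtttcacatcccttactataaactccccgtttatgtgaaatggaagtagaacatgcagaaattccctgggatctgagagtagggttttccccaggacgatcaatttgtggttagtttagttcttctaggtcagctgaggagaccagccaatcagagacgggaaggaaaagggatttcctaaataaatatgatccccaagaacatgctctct
A kappaB match was present in 3 of the 9 windows (Cxcl1, Cxcl2 and Cxcl10) and in 7.25% of the 32851 promoter windows of the same length. The kappaB capitals of Cxcl1 and Cxcl2 hold overlapping matches on both strands within 1 stretch. Cxcl10 holds 1 stretch of that kind, nearer to the start, and 1 single match on the plus strand farther away. An ISRE match was present in 2 of the 9 windows (Cxcl10 and Cxcl14) and in 2.98% of all windows. The full estrogen response element (GGTCA, 3 bases of any kind, TGACC) was found in none of the 9 and in 0.0639% of all windows. A match is a description of the letters and not of a bound site.

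The libraries held 58620 barcodes and between 41737881 and 109224969 unique molecular identifiers (UMIs) each, and 46257 cells passed the filters. Cells were gated by markers that include no member. Fibroblasts numbered 30840, of which 11489 were Fib_0-like (Dpp4, Pi16), 6997 Fib_1-like (Fabp4, Lpl), 4037 Fib_2-like (Tnc, Mfap4), 3920 Fib_3-like (Gdf10, F3) and 4397 of no subset. They are called Fib_0 to Fib_3 below, after the names of the study's clusters, and genes outside the gates followed them: Smpd3 stood at 526 counts per 1000000 UMIs of the class (CPM) in Fib_0 and 8.28 in Fib_1, and Postn at 3768 CPM in Fib_2 and 341 in Fib_0. Immune cells numbered 6487 (2188 T and NK, 1077 macrophage, 263 neutrophil, 182 dendritic and 137 B cells, the rest of no type) and endothelial cells 85. In all, 740 barcode sequences occurred in more than 1 library, covering 1.91% of the passed cells, and no call of a member given below was lost when these cells were left out. Which library carried which of 2 tags in the file names is not balanced over the groups. VCD_Vehicle, VCD_E2, VCD_E2_P4, VCD_Low_PBDE and Intact share 1 tag, and the other 7 libraries, among them all high-PBDE ones, the other. VCD_Low_E2 and VCD_Low_E2_P4 thus differ in tag from VCD_Low_PBDE, so that tag and hormone cannot be told apart within the low-PBDE libraries.

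Ackr3 was the member most concentrated in Fib_0. Over the 12 libraries its level there was between 903 and 2158 CPM with a median of 1232, against medians of 224 in Fib_3, 203 in Fib_1 and 141 in Fib_2, and Fib_0 was above each other subset in all 12. Ackr3 UMIs were found in 98.5% of Fib_0 cells, or 96.6% after thinning every cell to 5000 UMIs, and in 44.9% of Fib_2 cells (29.5% thinned). Fitted with library as a block (edgeR quasi-likelihood test, Benjamini-Hochberg adjustment over all genes), Ackr3 was 2.83 ± 0.09 (SE) higher on the log2 scale in Fib_0 than in the mean of the other 3 subsets (adjusted p = 1.41e-26). Such differences are common in this comparison, in which 72.6% of all genes tested passed in Fib_0, 60.2% in Fib_1, 60% in Fib_2 and 49.5% in Fib_3. The gates were set on counts of the same cells. In endothelial cells, pooled over libraries, Ackr3 stood at 212 CPM with UMIs in 64.7% of 85 cells.

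Cxcr4, the signalling receptor of the same ligand, was almost absent from fibroblasts. Its median level was at most 1.31 CPM in every subset (Fib_2) and UMIs were found in 0.686% of Fib_1 to 2.18% of Fib_2 cells. Among immune cells it stood at 913 CPM in neutrophils, 227 CPM in macrophages, 182 CPM in T and NK cells, 171 CPM in B cells and 53.6 CPM in dendritic cells, each pooled over libraries. The receptors of this ligand were thus read from different cells, Ackr3 in stroma and Cxcr4 in leukocytes.

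**Figure D1:**
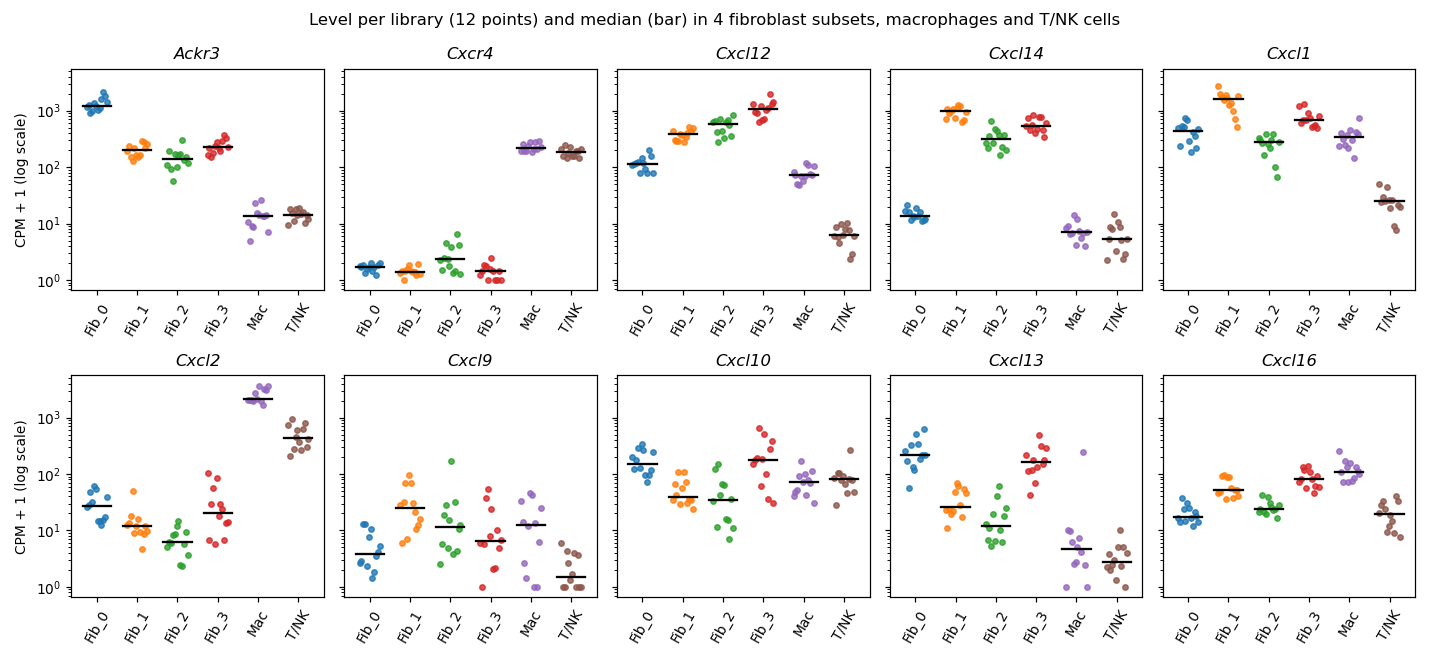
Level of each member (CPM + 1, log axis) in the 4 fibroblast subsets, macrophages (Mac) and T and NK cells (T/NK), with 1 point per library and a bar at the median of 12 libraries. Ackr3 stands highest in Fib_0 (median 1232 CPM), Cxcl14 lower there (12.5 CPM) than in the other 3 subsets, Cxcl12 highest in Fib_3 (1082 CPM) and Cxcl2 highest in macrophages (2114 CPM).

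Cxcl12 was lowest in Fib_0, where Ackr3 was highest. Its median was 1082 CPM in Fib_3 (637 to 1961), 586 in Fib_2, 378 in Fib_1 and 114 in Fib_0 (77.0 to 201). Fib_3 was above Fib_2 and Fib_1 above Fib_0 in 12 of 12 libraries, while Fib_2 was above Fib_1 in 10. The log2 difference of Fib_0 from the mean of the others was -2.32 ± 0.14 (adjusted p = 1.59e-17). Endothelial cells, another known source of Cxcl12, stood at 723 CPM pooled, with UMIs in 72.9% of cells.

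Cxcl14 separated Fib_0 from the rest more than any other member did. Its median level was 972 CPM in Fib_1 (626 to 1283), 539 in Fib_3, 316 in Fib_2 and 12.5 in Fib_0 (9.99 to 20.0). In T and NK cells, which make no collagen, Cxcl14 stood at 6.23 CPM, which is 1.61% of its level over all fibroblasts, against 1.21% for Col1a1. A UMI was found in 12.5% of Fib_0 cells (median depth 18703 UMIs) and in 4.66% of T and NK cells (5853 UMIs), and after thinning to 5000 UMIs in 4.42% and 3.58%. The log2 difference of Fib_0 from the mean of the other subsets was -5.36 ± 0.18 (adjusted p = 4.47e-26), which is not an exact fold at so low a level in Fib_0.

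Cxcl13 and Cxcl10 were shared by Fib_0 and Fib_3. Cxcl13 had a median of 214 CPM in Fib_0 and 164 in Fib_3, the former being higher in 8 of 12 libraries, and 25.3 in Fib_1 and 11.1 in Fib_2. Cxcl10 had a median of 178 CPM in Fib_3 and 152 in Fib_0, with Fib_3 higher in 7 of 12, and 38.8 in Fib_1 and 33.3 in Fib_2. Neither pair at the top of the order differed in a constant direction. Cxcl10 in Fib_3 was carried by few cells, 50% of its UMIs lying in 48 of 3920. Cxcl13 in Fib_0 was more widely spread, with UMIs in 53.3% of cells (36.3% thinned) and 50% of them in 611 of 11489. Cxcl10 was also seen outside fibroblasts, at 85.5 CPM in T and NK cells and 79.2 CPM in macrophages.

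Cxcl1 was highest in Fib_1, with a median of 1614 CPM (518 to 2704), followed by Fib_3 at 675, Fib_0 at 444 and Fib_2 at 277 (167 with the stricter gate margin). Fib_1 was above each other subset in 12 of 12 libraries. Cxcl2, its neighbour on the chromosome, had another source. It was low in fibroblasts, with medians of 26.3 CPM in Fib_0, 19.6 in Fib_3, 11.2 in Fib_1 and 5.14 in Fib_2, and stood at 2445 CPM in macrophages, 1460 in neutrophils and 469 in T and NK cells, pooled over libraries. In T and NK cells 50% of the Cxcl2 UMIs lay in 58 of 2188 cells, and the myeloid gene Lyz2 stood at 630 CPM there with UMIs in 14.4% of cells. Its part in the Cxcl2 level was not tested. Cxcl1 in macrophages had a median of 341 CPM.

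Cxcl16 was found in stroma, dendritic cells and macrophages. Its median was 81.2 CPM in Fib_3, 51.0 in Fib_1, 23.0 in Fib_2 and 16.4 in Fib_0, and its pooled level was 166 CPM in dendritic cells and 117 in macrophages, against 1.23 in neutrophils (1 UMI in 263 cells). Fib_3 differed from the mean of the other subsets by 1.56 ± 0.07 on the log2 scale (adjusted p = 4.14e-20). Cxcl9 was low in all 4 subsets. Its medians were 23.7 CPM in Fib_1, 10.5 in Fib_2, 5.45 in Fib_3 and 2.82 in Fib_0, and 50% of its Fib_2 UMIs lay in 3 of 4037 cells. Its dendritic level of 49.0 CPM was carried by very few cells too, 50% of the UMIs lying in 1 cell.

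Some members were partly found in the same cells, among them pairs that share a receptor or an inducer. Cxcl10 UMIs were present in 49.6% of the Cxcl9-positive Fib_0 cells and in 28.0% of the others, and in 46.4% against 14.5% in Fib_3. Cxcl9-positive cells were deeper, with a median of 24000 against 18566 UMIs in Fib_0, and the part of depth in this was not tested. Cxcl2 UMIs were present in 11.7% of the Cxcl1-positive Fib_0 cells and 4.60% of the others, and in 8.04% against 3.84% in Fib_3. The shares were closer in Fib_1, where Cxcl1 was highest (5.59% against 4.15%), and in Fib_2 (5.96% against 4.17%). Cxcl1-positive cells were deeper too, with a median of 19710 against 17268 UMIs in Fib_0. Such an excess was not limited to these pairs. In Fib_3, Cxcl10 UMIs were present in 26.1% of the Cxcl13-positive cells and 11.5% of the others. Cxcl14 UMIs were present there in 61.4% of the Cxcl12-positive cells and 41.6% of the others. Depth differed in Fib_3 as well, with a median of 16144 UMIs in Cxcl13-positive cells against 12456 in the others. The gap was wider for Cxcl12, with a median of 13649 UMIs in positive cells against 4966 in the others. The part of depth in these excesses was not tested. For Cxcl12 in Cxcl13-positive cells the order was reversed in Fib_1 (88.3% against 89.6%) and Fib_2 (92.1% against 93.6%).

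Several ligands passed the E2 contrast in each subset. The E2 contrast compared the mean of the E2 and E2 + P4 libraries with the no-hormone libraries (9 libraries, PBDE level as a covariate, edgeR quasi-likelihood test). Each treatment was 1 library, so the PBDE levels stood in as replicates. With PBDE level as a term, the p-values rest on the spread left between libraries after additive effects of hormone and PBDE. They do not measure the spread between libraries given the same treatment. In Fib_0, 3 of 10 members passed, all upward (Cxcl9, Cxcl10 and Cxcl16), where 11.9% of all genes passed, 6.3% upward and 5.58% downward. In Fib_1, 2 of 9 rose and 3 fell, where 13.3% of genes passed, 7.46% upward and 5.8% downward. In Fib_2, 1 of 10 rose and 3 fell (30.5% of genes passed, 16.4% upward and 14.1% downward), and in Fib_3 2 of 9 rose and 2 fell (3.08% passed, 2.07% upward and 1.01% downward). Cxcr4 did not reach the count filter in Fib_1 and Fib_3. In Fib_2 the members' share was near that of all genes. None of the Fib_3 calls held with the file name tag as a covariate, and none without VCD_Low_PBDE. Several calls in the subsets were lost for E2 alone, as given below. The fits were TMM-normalised, so the changes below are relative to the bulk of the genes, whose median log2 change was between -0.01 and 0.00 in the 4 subsets.

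Cxcl16 passed the E2 contrast upward in 3 of the 4 subsets. In Fib_0 it was at 12.9, 13.5 and 11.1 CPM without hormone, 37.1, 29.5 and 20.1 CPM with E2, and 23.4, 24.2 and 17.1 CPM with E2 + P4. All 6 hormone libraries were above all 3 without, and the log2 change was 0.96 ± 0.11 (adjusted p = 0.00381). In Fib_1 Cxcl16 stood at 46.6, 34.8 and 37.3 CPM without hormone, 92.8, 86.8 and 50.4 CPM with E2, and 97.1, 86.0 and 51.6 CPM with E2 + P4. Again no hormone library overlapped the others (log2 change 0.89 ± 0.14, adjusted p = 0.00368). In Fib_3 it went from 81.6, 56.1 and 44.3 CPM to 133, 140 and 60.01 CPM with E2 and 117, 106 and 89.5 CPM with E2 + P4, with 5 of 6 hormone libraries above the highest without (log2 change 0.89 ± 0.16, adjusted p = 0.0173). In Fib_2 the change was 0.33 ± 0.19 and did not pass (adjusted p = 0.223). Cxcl16 stood there at 18.9 to 22.92 CPM without hormone, 23.02 to 42.2 CPM with E2 and 15.4 to 29.9 CPM with E2 + P4. The E2 libraries were thus all above those without hormone, the lowest by little, while the E2 + P4 libraries overlapped them. The P4 contrast there was -0.64 ± 0.21 and did not pass (adjusted p = 0.139). The call in Fib_3 was lost when VCD_Low_PBDE (adjusted p = 0.121) or VCD_High_PBDE (0.0596) was left out, with the file name tag as a covariate (0.12), and for E2 alone (0.0531).

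Cxcl10 rose in Fib_0 and Fib_3. In Fib_0 it was at 120, 125 and 72.2 CPM without hormone, 178, 342 and 95.5 CPM with E2, and 288, 263 and 117 CPM with E2 + P4. The groups overlapped, the high-PBDE library being the lowest of each, and within each PBDE level both hormone libraries were above the one without (log2 change 0.91 ± 0.19, adjusted p = 0.0248). In Fib_3 Cxcl10 stood at 173, 59.3 and 34.6 CPM without hormone, 190, 183 and 276 CPM with E2, and 648, 502 and 389 CPM with E2 + P4. These 3 groups did not overlap, and the E2 contrast was 2.13 ± 0.35 (adjusted p = 0.0139). In Fib_1 (0.53 ± 0.27, adjusted p = 0.225) and Fib_2 (-0.24 ± 0.54, adjusted p = 0.764) it did not pass. The study itself singled out Cxcl10 in Dpp4+ fibroblasts from some of these libraries, so its direction in Fib_0 is not independent evidence. With the file name tag as a covariate neither call held (adjusted p = 0.137 in Fib_0 and 0.0867 in Fib_3), nor for E2 alone (0.0717 and 0.121). Leaving out VCD_Vehicle (adjusted p = 0.0821), VCD_Low_PBDE (0.139) or VCD_High_PBDE_E2_P4 (0.0585) ended the call in Fib_0, and VCD_Low_PBDE (0.0853) that in Fib_3. The summed macrophage markers in Fib_3 moved with the hormone too, from 2.31 to 3.42 CPM without it to 4.49 to 31.2 CPM with it, at most 0.318% of their level in macrophages, in which Cxcl10 stood at 79.2 CPM. Their part in the Cxcl10 change was not tested.

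Cxcl9 rose in Fib_0 from a very low level. It was at 1.91, 1.35 and 0.870 CPM without hormone, 12.1, 6.73 and 2.46 CPM with E2, and 11.9, 9.47 and 3.18 CPM with E2 + P4. All 6 hormone libraries were above the 3 without, and the log2 change was 2.39 ± 0.19 (adjusted p = 0.00207), a call that held in every alternative run. In T and NK cells Cxcl9 stood at 1.42 CPM, within the range of the no-hormone values in Fib_0, so the log2 change is not an exact fold. In Fib_1 Cxcl9 had the higher values of 5.09, 5.98 and 20.2 CPM without hormone, 30.5, 93.7 and 9.42 CPM with E2, and 67.1, 68.3 and 11.4 CPM with E2 + P4, which overlapped and did not pass (1.86 ± 0.79, adjusted p = 0.148).

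**Figure D2:**
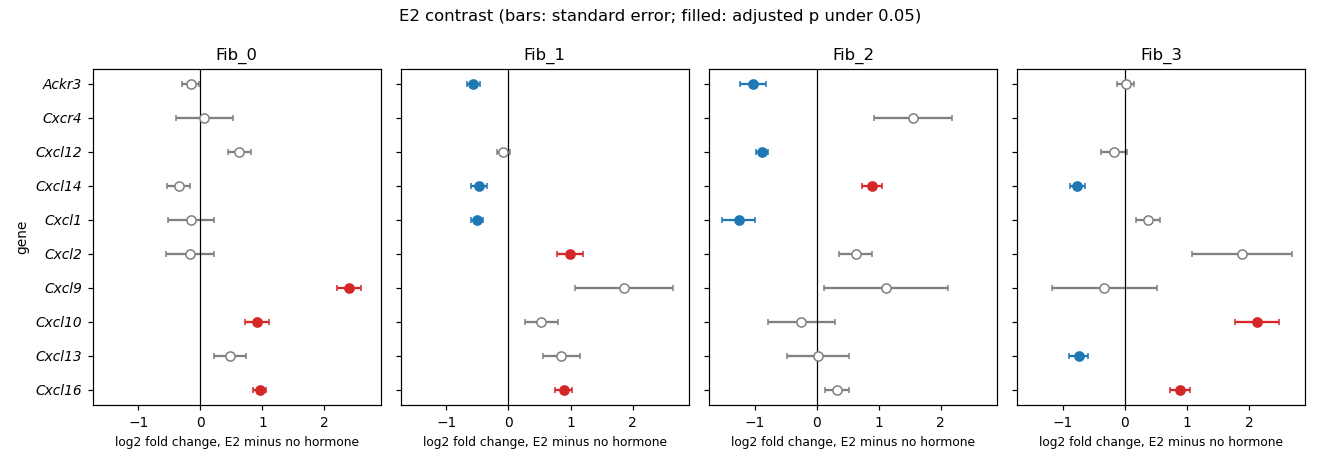
Log2 fold change of each member under E2 (mean of E2 and E2 + P4 minus no hormone, horizontal axis) in the 4 fibroblast subsets, with the standard error as a bar, red filled points for genes that rose, blue for genes that fell and open grey points for genes that did not pass. Cxcl16 lies near 0.9 in Fib_0, Fib_1 and Fib_3, and Cxcl14 lies on opposite sides of 0 in Fib_2 (0.89) and Fib_3 (-0.76).

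Cxcl14 moved in opposite directions among the subsets that express it. In Fib_2 it rose from 216, 271 and 160 CPM without hormone to 361, 478 and 222 CPM with E2 and 648, 443 and 369 CPM with E2 + P4 (log2 change 0.89 ± 0.16, adjusted p = 0.00272), and 5 of 6 hormone libraries were above the highest without. In Fib_3 it fell from 745, 827 and 784 CPM to 452, 409 and 461 CPM with E2 and 548, 465 and 340 CPM with E2 + P4, with no overlap (-0.76 ± 0.13, adjusted p = 0.0133). In Fib_1 it fell from 1088, 1064 and 1188 CPM to 912, 746 and 626 CPM with E2 and 1007, 1107 and 694 CPM with E2 + P4 (-0.48 ± 0.13, adjusted p = 0.0399). The difference between Fib_2 and Fib_3 was not itself tested. The call in Fib_1 was lost when any 1 of 6 libraries was left out, namely VCD_E2_P4, VCD_Low_PBDE, VCD_Low_E2, VCD_High_PBDE, VCD_High_PBDE_E2 or VCD_High_PBDE_E2_P4, the log2 change being -0.25 without VCD_High_PBDE. It was lost too with doublets removed (adjusted p = 0.0565), with the tag as a covariate (0.0708) and for E2 alone (0.0682). That in Fib_3 was lost without VCD_Low_PBDE (adjusted p = 0.094) or VCD_High_PBDE (0.0599) and with the tag as a covariate (0.0925).

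Cxcl12 fell in Fib_2. It was at 658, 723 and 673 CPM without hormone, 414, 432 and 555 CPM with E2, and 282, 323 and 359 CPM with E2 + P4. The 3 groups did not overlap, the log2 change under E2 was -0.88 ± 0.10 (adjusted p = 0.000158), and the call held in every alternative run. Cxcl12 in Fib_0 stood at 113, 77.2 and 77.0 CPM without hormone, 115, 142 and 201 CPM with E2, and 121, 118 and 153 CPM with E2 + P4. All 6 hormone libraries were above the 3 without, but the change of 0.63 ± 0.19 did not pass (adjusted p = 0.0669, and 0.0041 in DESeq2). It was -0.08 ± 0.10 in Fib_1 and -0.17 ± 0.21 in Fib_3, neither of which passed. Tested directly, the E2 contrast of Cxcl12 in Fib_0 exceeded the mean of the other 3 subsets by 1.00 ± 0.18 on the log2 scale (adjusted p = 0.000497), where 18.4% of genes passed. Of the 9 members tested for this difference, Cxcl12 passed, and the closest of the rest was Cxcl2 (-1.39 ± 0.51, adjusted p = 0.0567).

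Ackr3 fell in Fib_1 and Fib_2 but did not pass in Fib_0, where it is most abundant. In Fib_2 it went from 192, 172 and 305 CPM to 90.7, 98.8 and 132 CPM with E2 and 56.1, 166 and 150 CPM with E2 + P4, with no overlap (log2 change -1.03 ± 0.21, adjusted p = 0.00546). In Fib_1 it went from 238, 220 and 285 CPM to 147, 162 and 275 CPM with E2 and 125, 150 and 216 CPM with E2 + P4 (-0.57 ± 0.10, adjusted p = 0.00724, and 0.0892 for E2 alone). In Fib_0 the log2 change was -0.15 ± 0.14 (adjusted p = 0.499). Cxcr4 stood at or below 5.57 CPM in every fibroblast library of these groups and did not pass in any subset tested.

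Cxcl1 fell in the same 2 subsets as Ackr3. In Fib_1 it was at 1956, 1919 and 992 CPM without hormone, 1728, 1680 and 707 CPM with E2, and 1549, 1273 and 518 CPM with E2 + P4, lower at each PBDE level (log2 change -0.51 ± 0.10, adjusted p = 0.0104, and 0.16 for E2 alone). In Fib_2 it went from 304, 387 and 387 CPM to 271, 252 and 97.5 CPM with E2 and 165, 220 and 65.7 CPM with E2 + P4, with no overlap (-1.25 ± 0.27, adjusted p = 0.00624, and 0.065 for E2 alone). Of 14 immediate early and heat shock genes, which cell dissociation is known to raise, 11 fell and 1 rose in Fib_1 (median log2 change -0.64, where 5.8% of all genes fell) and 13 fell in Fib_2 (-1.003, where 14.1% fell). In Fib_3, 6 of them fell (-0.41) while the log2 change of Cxcl1 was 0.37 ± 0.20 and did not pass (adjusted p = 0.329), and in Fib_0 2 fell (-0.04) beside a Cxcl1 change of -0.15 ± 0.37. Their part in the Cxcl1 change was not tested. Cxcl2 rose in Fib_1, the one subset in which it passed, from 12.6, 8.08 and 3.67 CPM to 17.1, 11.2 and 7.72 CPM with E2 and 48.1, 15.2 and 11.1 CPM with E2 + P4 (1.00 ± 0.21, adjusted p = 0.0152). This call was lost for E2 alone (adjusted p = 0.268) and without VCD_Vehicle (0.0979) or VCD_High_PBDE (0.0534). The summed macrophage markers in Fib_1 moved with the hormone as well, from 3.23 to 4.21 CPM without it to 4.66 to 14.5 CPM with it, at most 0.148% of their level in macrophages, in which Cxcl2 stood at 2445 CPM. Their part in the Cxcl2 change was not tested.

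Cxcl13 fell in Fib_3 under the E2 contrast, from 110, 176 and 313 CPM without hormone to 41.3, 69.0 and 152 CPM with E2 and 118, 130 and 179 CPM with E2 + P4. The groups overlapped, with 2 of 6 hormone libraries below the lowest without. The log2 change was -0.74 ± 0.16 (adjusted p = 0.0347) and the call was lost when any of 7 libraries was left out, with adjusted p between 0.0556 and 0.197. Those libraries were VCD_Vehicle, VCD_E2, VCD_Low_PBDE, VCD_Low_E2, VCD_Low_E2_P4, VCD_High_PBDE and VCD_High_PBDE_E2_P4. It was lost too with the tag as a covariate (adjusted p = 0.195) and when the cell with the most UMIs was taken out of each sum (0.0512).

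**Figure D3:**
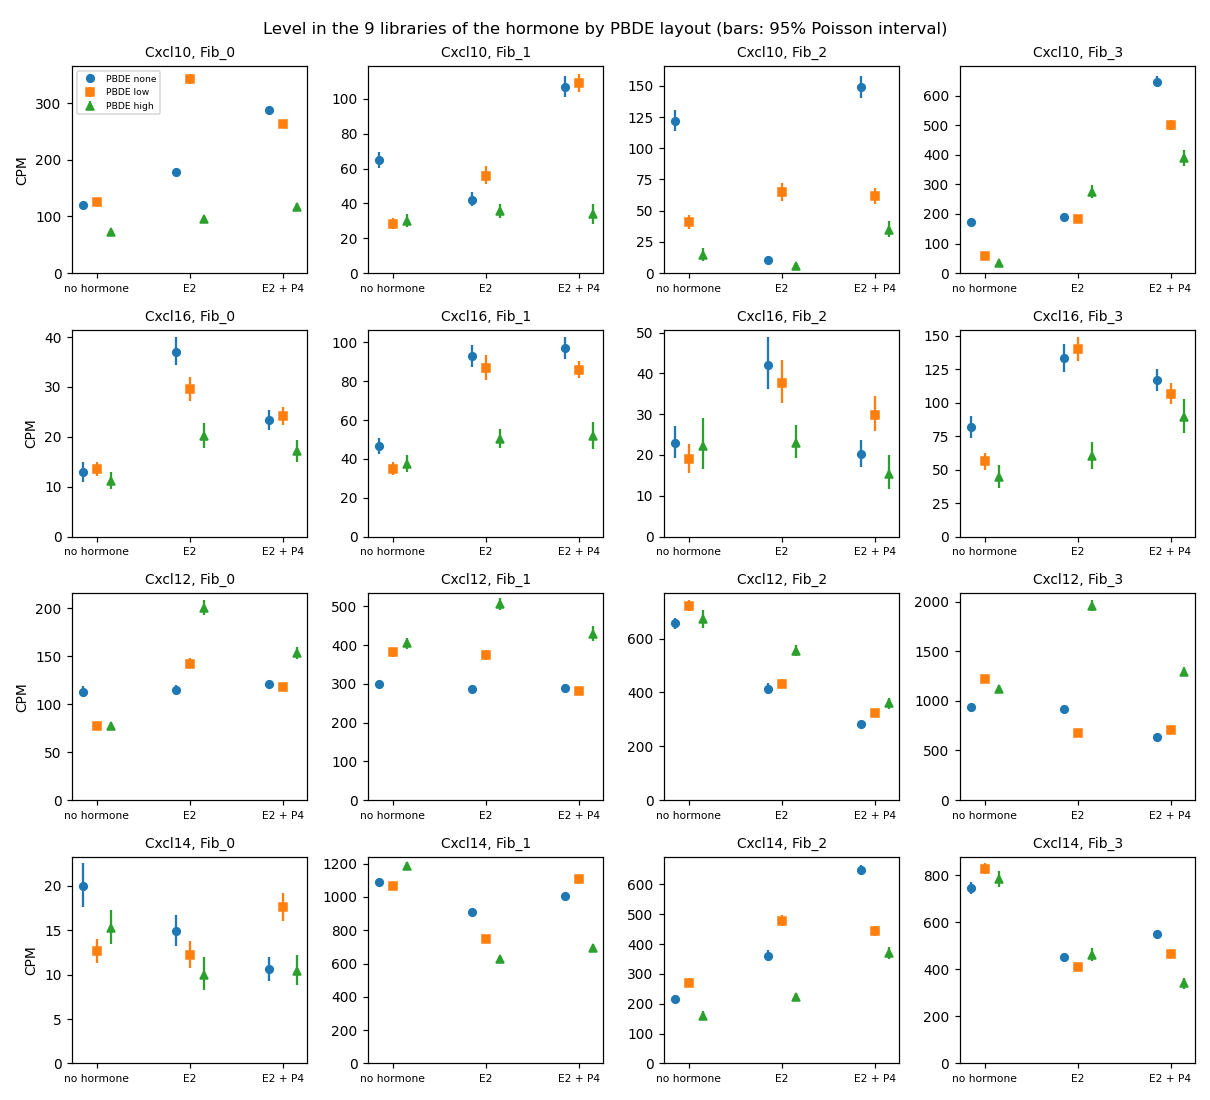
Level (CPM, linear axis from 0) of Cxcl10, Cxcl16, Cxcl12 and Cxcl14 in the 4 subsets, with 1 symbol per library (circle no PBDE, square low, triangle high) and a 95% Poisson interval of counting error as a bar. Cxcl12 in Fib_2 steps down from 658 to 723 CPM without hormone to 282 to 359 CPM with E2 + P4, and Cxcl10 in Fib_3 steps up to 389 to 648 CPM.

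E2 also changed genes used for the gates, so that cells near a border can change subset with treatment. Of the 6 gate markers of each subset, 1 changed in Fib_0, 3 in Fib_1, 5 in Fib_2 (1 rose and 4 fell, log2 changes from -1.69 to 1.53) and 0 in Fib_3 (log2 changes from -0.51 to 0.55). Whether such shifts took part in the member changes was not tested. With the gate margin doubled, no E2 call of a member was lost. The doubled margin rests on the same markers, so it cannot show whether cells changed subset with treatment.

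With P4 added to E2, few genes passed the threshold in any subset, and 1 member did. A low number of calls does not show that few genes changed. At an unadjusted p under 0.05 in the quasi-likelihood test there were 1332 of 12713 genes in Fib_0 and 2120 of 12061 in Fib_1. The counts were 1960 of 11580 in Fib_2 and 895 of 11185 in Fib_3. DESeq2 called 127, 258, 328 and 36 genes in Fib_0 to Fib_3. Cxcl12 fell further in Fib_2, from 414, 432 and 555 CPM with E2 to 282, 323 and 359 CPM with E2 + P4 (log2 change -0.54 ± 0.12, adjusted p = 0.0441), where 2.36% of genes passed. This call was lost when any of 7 libraries was left out (adjusted p between 0.058 and 0.229), namely VCD_E2, VCD_E2_P4, VCD_Low_PBDE, VCD_Low_E2, VCD_Low_E2_P4, VCD_High_PBDE_E2 and VCD_High_PBDE_E2_P4, and with the tag as a covariate (0.0569). The share of genes past the threshold was 0.0236% in Fib_0, 0.796% in Fib_1 and 0.0179% in Fib_3.

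The largest P4 value of a fibroblast member that did not pass was that of Cxcl9 in Fib_2 (2.21 ± 0.95, adjusted p = 0.27), where most UMIs of 1 library came from 1 cell, followed by Cxcl13 in Fib_0. Cxcl13 stood at 56.0, 117 and 216 CPM with E2 and 322, 504 and 618 CPM with E2 + P4 in Fib_0. The groups did not overlap and the log2 change was 2.08 ± 0.30, with an adjusted p of 0.0736 in the quasi-likelihood test and 3.04e-05 in DESeq2. In Fib_3 Cxcl13 stood at 41.3, 69.0 and 152 CPM with E2 and at 118, 130 and 179 CPM with E2 + P4 (0.95 ± 0.19, adjusted p = 0.135, and 0.00194 in DESeq2). The lowest Cxcl13 levels of both subsets were thus in the VCD_E2 library.

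**Figure D4:**
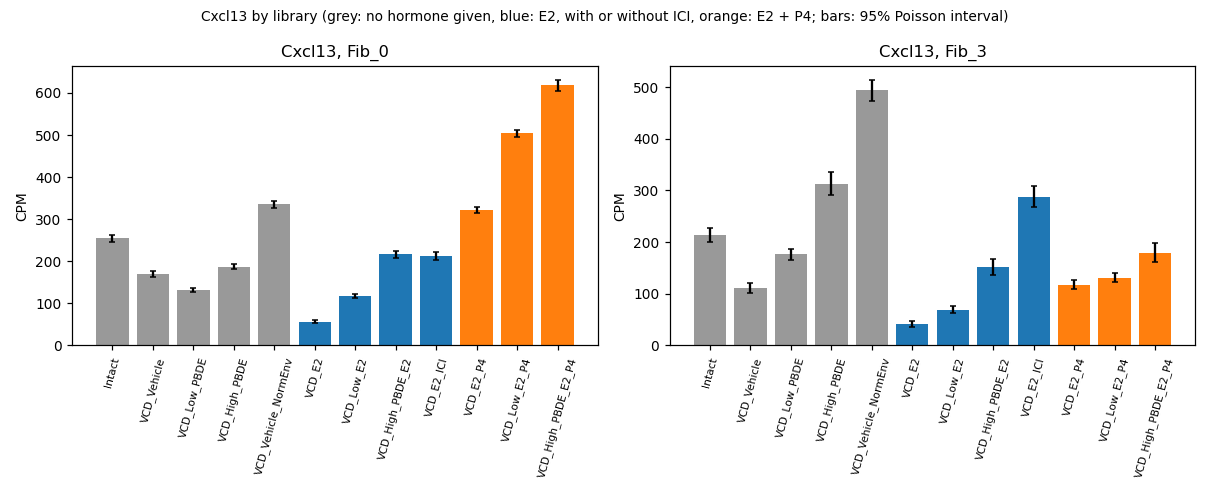
Cxcl13 level (CPM, bars from 0) in Fib_0 and Fib_3 in each of the 12 libraries, with the 95% Poisson interval of counting error. Grey bars had no hormone given, blue bars had E2 (with ICI in VCD_E2_ICI) and orange bars had E2 + P4. In Fib_0 the 3 E2 + P4 libraries reach 322 to 618 CPM, and in Fib_3 the highest bar is VCD_Vehicle_NormEnv at 494 CPM.

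The 3 libraries outside the layout had no replicate, and their intervals cover counting error only (exact Poisson, 95%). With ICI added to E2, Cxcl16 was at 13.1 CPM (10.9 to 15.5) in Fib_0 against 37.1 (34.3 to 39.9) in VCD_E2 and 12.9 (11.0 to 15.0) in VCD_Vehicle. In Fib_1 Cxcl16 was at 40.6 CPM (36.1 to 45.6) with ICI, 92.8 (87.1 to 98.8) in VCD_E2 and 46.6 (42.8 to 50.7) in VCD_Vehicle, and in Fib_3 at 58.1, 133 and 81.6 CPM. The ICI library thus lay with the vehicle library for Cxcl16 in these subsets, or below it.

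Other members followed that order in part. Cxcl12 in Fib_2 was at 850 CPM (819 to 881) with ICI, 414 (395 to 434) in VCD_E2 and 658 (638 to 678) in VCD_Vehicle. Cxcl14 in Fib_2 was at 199 CPM (184 to 214) with ICI, 361 (343 to 380) in VCD_E2 and 216 (205 to 228) in VCD_Vehicle. Cxcl10 differed between subsets. In Fib_3 it was at 29.8 CPM (23.6 to 37.0) with ICI, 190 (178 to 203) in VCD_E2 and 173 in VCD_Vehicle, so that the ICI library lay below both. In Fib_0 it was at 249 CPM (239 to 259) with ICI, 178 (172 to 185) in VCD_E2 and 120 (114 to 126) in VCD_Vehicle. VCD_E2 and VCD_E2_ICI carry different file name tags, so tag and ICI cannot be told apart here.

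In the Intact library, Cxcl1 in Fib_1 was at 2704 CPM (2670 to 2738), the highest of the 12, and 1956 (1931 to 1982) in VCD_Vehicle. Cxcl10 in Fib_0 was at 197 CPM (190 to 205) in Intact and 120 (114 to 126) in VCD_Vehicle. Cxcl16 differed little, at 15.6 CPM in Fib_0 of Intact and 12.9 in VCD_Vehicle, with overlapping intervals (13.6 to 17.9 and 11.0 to 15.0). In VCD_Vehicle_NormEnv, Cxcl13 was at 336 CPM in Fib_0 and 494 CPM in Fib_3, against 169 and 110 CPM in VCD_Vehicle.

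For Ackr3 in Fib_0 and Cxcl1 in Fib_1, the high-PBDE libraries stood apart at each hormone level. This contrast was not tested here, and the high-PBDE libraries share the file name tag. How many other members, or genes as a whole, separate in the same way was not counted. The values are therefore not read as a trait of the members. Ackr3 in Fib_0 was at 1628, 2158 and 1842 CPM in the high-PBDE libraries (no hormone, E2, E2 + P4), above all 6 other libraries of the layout, which lay between 903 and 1350. Cxcl1 in Fib_1 was at 992, 707 and 518 CPM in the high-PBDE libraries, below the 6 others (1273 to 1956).

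In immune cells no member passed the E2 contrast. For immune cells as a whole the quasi-likelihood test called 0 of 11719 genes, with 1191 at an unadjusted p under 0.05 and 110 by DESeq2, so that this comparison had no calls to read members against (percent called 0). Cxcl2 stood at 609, 826 and 639 CPM without hormone, 1277, 972 and 1347 CPM with E2, and 709, 906 and 1489 CPM with E2 + P4 (log2 change 0.64 ± 0.21, unadjusted p = 0.0133, adjusted p = 0.363). Cxcr4 was flat, at 182, 174 and 224 CPM without hormone, 219, 237 and 195 CPM with E2, and 151, 156 and 212 CPM with E2 + P4 (0.00 ± 0.12). In macrophages 41 of 8438 genes passed (0.486%) and no member did. Cxcl2, the leading macrophage ligand, stood there at 2054, 2738 and 1652 CPM without hormone, 2076, 2153 and 3226 CPM with E2, and 1973, 3700 and 3024 CPM with E2 + P4 (0.27 ± 0.19, adjusted p = 0.649). For P4 the immune test called 0 of 11719 genes (1033 at an unadjusted p under 0.05, 14 by DESeq2) and no macrophage member passed.

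The rest of the family was read from a list of 13 further genes, of which 12 were found. Most were low in fibroblasts. The exception was Ackr1, the atypical receptor that binds many chemokines, at 69.0 CPM in Fib_0 and 38.6 CPM in Fib_3, which fell under E2 in Fib_0 (-0.41 ± 0.06, adjusted p = 0.01). With P4 added to E2, Ackr1 rose in Fib_3 (0.87 ± 0.11, adjusted p = 0.0316), being 1 of the 2 genes that passed there. No gene passed in Fib_3 without VCD_Low_E2_P4 or without VCD_High_PBDE_E2_P4, so this call ended without either library. Its change in Fib_0 was 0.56 ± 0.08 (adjusted p = 0.0676). Pf4 stood at 1529 CPM in macrophages. Several receptors of the ligands above were found on leukocytes, with Cxcr2 at 917 CPM in neutrophils, Cxcr6 at 243 CPM and Cxcr3 at 90.6 CPM in T and NK cells. Cxcr5, the receptor of CXCL13, was barely detected, at 6.33 CPM in B cells (16 UMIs) and 1.47 CPM in T and NK cells. Cxcl15 stood at 897 CPM in the 147 epithelial cells.

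Gene lists that surround the family moved as follows under E2, where the shares of all genes that rose and fell were 6.3% and 5.58% in Fib_0, 7.46% and 5.8% in Fib_1, 16.4% and 14.1% in Fib_2, and 2.07% and 1.01% in Fib_3. Of 20 interferon response genes, 15 rose in Fib_0 (median log2 change 1.01, and 0.00 over all genes), led by Irf7 (2.34), Ifit3 (2.30) and Bst2 (1.43). Of the same 20, 7 rose in Fib_1, 12 rose in Fib_3 (median 0.98), and 7 fell with none rising in Fib_2 (-0.22). The subsets in which Cxcl10 rose were those with most interferon genes up, and a link between the 2 was not tested. The study had reported interferon gene sets and Ifi27l2a, a gene of this list, up with E2 in Dpp4+ fibroblasts. Its data included some of these libraries, so the interferon count in Fib_0 is not independent evidence. Of 15 NF-kB response genes, Ccl7 (0.78) and Vcam1 (0.73) rose in Fib_0, 3 fell in Fib_1, 1 rose in Fib_3, and 11 fell with 1 rising in Fib_2 (median -0.86). Of 13 genes for processing and retaining chemokines, 4 rose in Fib_0, among them the proteoglycans Bgn (1.15) and Sdc1 (1.06) and the protease Mmp2 (0.34), and the heparan sulfate enzymes Hs6st1 (-0.48) and Ndst1 (-0.31) fell. Of the same 13, 3 rose and 2 fell in Fib_1, 7 rose and 1 fell in Fib_2 (median 0.38), and 1 rose in Fib_3. Of 11 measured genes listed for CXCL12 and CXCR4 signalling, Rgs2 (-1.19) and Stat3 (-0.32) fell in Fib_0, where Cxcr4 was almost absent. A link of these changes to Cxcl12 was not tested. Among the 14 immediate early and dissociation genes, Junb (-0.62) and the heat shock gene Hspa1a (-0.59) fell in Fib_0.

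The genes most like each member were taken over the 48 sums of 12 libraries by 4 subsets, by Pearson correlation of log2(CPM + 1). The sums of a subset share its identity, so these values are descriptions. Ackr3 was closest to Adgrd1, Clip1 and Pde8a (r = 0.961, 0.961 and 0.960). Cxcl14 was closest to Plvap, Ndufa4l2 and Fam198b (r = 0.981, 0.979 and 0.958), and Cxcl12 to Cp, Spock2 and Kitl (r = 0.929, 0.929 and 0.925). Cxcl10 was closest to the interferon genes Bst2, Ifi27l2a and Eif2ak2 (r = 0.796, 0.788 and 0.770). Cxcl1 was closest to Ifrd1, Ptges and Fst (r = 0.896, 0.858 and 0.835), Cxcl13 to C3, Tshz2 and Scara5 (r = 0.884, 0.880 and 0.871), Cxcl16 to S100b, Kctd12 and Cav1 (r = 0.892, 0.857 and 0.856) and Cxcl2 to Hebp2, Clic1 and Uchl3 (r = 0.712, 0.705 and 0.703). Cxcl9 and Cxcr4 were below the minimum mean of 20 CPM.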

How the data were processed

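Droplet single-cell libraries (Chromium 3′ v3) were counted by the authors with Cell Ranger 3.1.0 on mm10, per the submitters' processing notes, and the deposited matrices hold raw UMI counts per gene and barcode. Cells were kept with at least 500 genes, 1000 UMIs and at most 5% mitochondrial UMIs. Cells were gated on marker counts, and a fibroblast was put in a subset when its best marker score led the next by 0.25 SD. The markers were taken from a list, and the thresholds were set after looking at the marker distributions. No doublets were removed in the main analysis. Counts were summed per library and class (at least 20 cells) and tested with edgeR 4.0.16 (TMM, filterByExpr, quasi-likelihood, Benjamini-Hochberg over all genes, threshold 0.05). The E2 and P4 contrasts used 9 libraries with hormone and PBDE level as additive terms, and the comparison of subsets used 12 libraries with library as a block. DESeq2 1.42.0, other gates, filters and left-out libraries were alternatives. Levels are CPM of summed UMIs, their 95% intervals being exact Poisson ones, or exact binomial ones for a share of cells. Both cover counting error only. To compare shares across depths, cells were thinned to 5000 UMIs, which leaves out shallower cells. The E2 fits were run on simulated counts that held a hormone effect and no PBDE effect. That check therefore does not cover the use of PBDE levels as replicates.

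The members, lists and markers were chosen with earlier results of these data known. All 10 members are named. Of the other lists, genes that passed the E2 contrast in Fib_0 or immune cells are named, at most 3 per list and direction by size, and for each member with a mean of at least 20 CPM the 3 genes most correlated with it. Single genes of the family outside the rule were named after their values were seen. The labels name a HiSeq and the methods of the study a NovaSeq as the sequencer. Genome positions come from GENCODE and promoter windows from RefSeq, both on GRCm38. Because neighbouring Cxcl1 and Cxcl2 are similar in sequence, reads could be split between them by the authors' counting, which was not examined.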

Additional observations from a re-analysis of the deposited data

Results flagged for a closer look

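In the 6 libraries of the layout given E2, with or without P4, the highest or lowest value was compared with its nearest neighbour by Dixon's 95% criterion, in 60 combinations of a member and a cell class, and 7 values stood apart. Chance gives about 1 in 20 for normally distributed values of a single group. The libraries here mix hormone groups and PBDE levels, some values are low counts, and macrophages are part of the immune cells. That rate is therefore not a measure to set the 7 against. Several rest on few cells.

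Cxcl9 in Fib_2 was at 171 CPM in VCD_Low_E2_P4, with the next hormone library at 26.8, and 757 of its 1117 UMIs there came from 1 cell. Cxcl13 in Fib_2 was at 39.8 CPM in the same library, the next being 17.0, and Cxcl14 in macrophages at 10.9 CPM, the next being 5.86. That library held the most barcodes (10006). Cxcl2 in Fib_1 was at 48.1 CPM in VCD_E2_P4, with 17.1 in the next.

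Cxcl13 in macrophages was at 246 CPM in VCD_High_PBDE_E2, while the next hormone library stood at 8.86, and in all immune cells it was at 75.3 CPM there and 4.90 in the next. The 252 macrophage UMIs lay in 14 of 82 cells, 86 of them in 1 cell. Cxcl9 in immune cells was at 52.4 CPM in VCD_High_PBDE_E2_P4, the next being 16.0, with 86 of 174 UMIs in 1 cell.

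The E2 contrast of Cxcl12 differed between subsets, being 1.00 higher on the log2 scale in Fib_0 than in the mean of Fib_1 to Fib_3 (edgeR quasi-likelihood test of the difference, adjusted p = 0.000497).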

How the results depend on the processing

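No paired analysis was possible because each group is 1 library, so that replicate numbers pair nothing. The PBDE level in the hormone contrasts and the library in the comparison of subsets were already terms of the fits. Among the members past the threshold, the 16 E2 results kept their direction in all 304 values from alternatives, and 39 of these values did not pass. The P4 result of Cxcl12 in Fib_2 did not pass in 8 of 18. The 32 called differences between subsets passed in all 576 values, and the difference in E2 contrast of Cxcl12 in all 15. The report names the settings and libraries that end a call. Leaving out shared barcodes or the top cell of each member was added after seeing the data. The cause of each change below was not tested, except that leaving out libraries leaves fewer samples. The comparison of E2 alone with no hormone kept the same fit of 9 libraries and changed only the contrast. The E2 + P4 libraries thus stayed in that fit but not in its contrast. Cxcr4 did not reach the count filter in Fib_1 and Fib_3, and was not tested there. For the 10 members in the 4 fibroblast subsets and macrophages, each of the 50 shares of cells with a UMI fell below the 95% interval of the share before thinning when cells were thinned to 5000 UMIs. Shares in other classes did not all fall (Cxcl2 in T and NK cells was 21.5% before and 24.6% after). Of the 50 levels in these classes, 49 moved by less than the SD of libraries under the stricter gate margin, the exception being Cxcl1 in Fib_2 (167 CPM), and all 50 did so when pooled over libraries.

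The number of genes past the threshold was 1510 (E2, Fib_0), 1599 (E2, Fib_1), 3536 (E2, Fib_2), 345 (E2, Fib_3), 0 (E2, immune cells), 41 (E2, macrophages), 3 (P4, Fib_0), 96 (P4, Fib_1), 273 (P4, Fib_2), 2 (P4, Fib_3), 0 (P4, immune cells) and 9 (P4, macrophages). With the file name tag as a covariate it was 209 (E2, Fib_0), 724 (E2, Fib_1), 2122 (E2, Fib_2), 31 (E2, Fib_3), 3 (E2, macrophages), 9 (P4, Fib_0) and 12 (P4, Fib_3). For E2 alone against no hormone it was 866 (E2, Fib_0), 318 (E2, Fib_1), 1503 (E2, Fib_2), 68 (E2, Fib_3) and 14 (E2, macrophages). Without a filter on low counts it was 824 (E2, Fib_3), 130 (E2, immune cells), 259 (E2, macrophages), 53 (P4, Fib_0), 477 (P4, Fib_1), 675 (P4, Fib_2), 186 (P4, Fib_3), 24 (P4, immune cells) and 112 (P4, macrophages). With DESeq2 it was 110 (E2, immune cells), 67 (E2, macrophages), 127 (P4, Fib_0), 258 (P4, Fib_1), 36 (P4, Fib_3) and 14 (P4, immune cells). With the stricter gate margin it was 20 (E2, macrophages), 7 (P4, Fib_0), 570 (P4, Fib_2) and 14 (P4, Fib_3). With doublets removed it was 8 (P4, Fib_0). With shared barcodes left out it was 4 (P4, Fib_3) and 1 (P4, immune cells). With a mitochondrial limit of 10% it was 1 (P4, immune cells) and 4 (P4, macrophages). Leaving out 1 library at a time its range was 1069 to 2353 (difference, Fib_0), 195 to 1658 (E2, Fib_0), 724 to 1275 (E2, Fib_1), 2071 to 3597 (E2, Fib_2), 33 to 375 (E2, Fib_3), 0 to 50 (E2, immune cells), 4 to 102 (E2, macrophages), 0 to 25 (P4, Fib_0), 1 to 279 (P4, Fib_1), 27 to 398 (P4, Fib_2), 0 to 21 (P4, Fib_3), 0 to 2 (P4, immune cells) and 5 to 33 (P4, macrophages), where difference is the E2 contrast of Fib_0 minus that of the other subsets.

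Log2 changes of members that did not pass changed sign in these cases. With a mitochondrial limit of 10% they were Cxcl10 -0.032 (difference, Fib_0), Ackr3 0.038 (E2, macrophages) and Cxcl12 -0.018 (P4, macrophages). With doublets removed they were Cxcl14 0.12 (difference, Fib_0), Cxcl14 0.033, Cxcr4 -0.023 (E2, Fib_0), Cxcl13 -0.66 (E2, Fib_2), Ackr3 -0.001, Cxcl9 0.95 (E2, Fib_3), Cxcl16 -0.002 (P4, Fib_1), Cxcl16 -0.009 (P4, Fib_3) and Cxcl1 0.001, Cxcl10 -0.037 (P4, immune cells). With the file name tag as a covariate they were Cxcl1 0.23, Cxcl2 0.47, Cxcr4 -0.27 (E2, Fib_0), Cxcl12 0.029 (E2, Fib_1), Cxcl9 -0.29 (E2, Fib_2), Ackr3 -0.001, Cxcl12 0.17, Cxcl9 4.91 (E2, Fib_3), Cxcr4 -0.042 (E2, immune cells), Ackr3 0.38, Cxcl10 0.33, Cxcl9 -2.86 (E2, macrophages) and Cxcl1 0.025 (P4, immune cells). For E2 alone against no hormone they were Cxcl1 0.091, Cxcl13 -0.56, Cxcl2 0.15, Cxcr4 -0.055 (E2, Fib_0), Cxcl12 0.03 (E2, Fib_1), Cxcl13 -0.62 (E2, Fib_2), Cxcl16 -0.19, Cxcl9 -0.36 (E2, immune cells) and Cxcl1 -0.026, Cxcl16 -0.38 (E2, macrophages). With the stricter gate margin they were Cxcl13 -0.97, Cxcl16 -0.026 (E2, Fib_2), Ackr3 -0.038, Cxcl9 0.46 (E2, Fib_3), Cxcl1 -0.003, Cxcl10 0.44, Cxcl16 -0.094 (E2, macrophages) and Cxcr4 -0.041 (P4, macrophages). Without the top cell of each member they were Cxcl13 -0.30 (E2, Fib_2), Ackr3 -0.007, Cxcl9 0.29 (E2, Fib_3), Cxcl9 -0.15 (E2, immune cells), Cxcl10 0.30 (E2, macrophages) and Cxcr4 -0.008 (P4, macrophages). With DESeq2 they were Cxcl9 1.33 (E2, Fib_3), Cxcl9 -1.99 (E2, macrophages) and Cxcl1 0.006 (P4, immune cells). With shared barcodes left out they were Cxcr4 -0.005 (E2, immune cells), Cxcl16 -0.024 (P4, Fib_3) and Cxcl9 -0.043, Cxcr4 -0.036 (P4, macrophages).

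Leaving out 1 library at a time also changed the sign of members that did not pass, with these lowest and highest log2 values. For the difference in E2 contrast they were Cxcl1 -0.055 to 0.68 and Cxcl10 -0.45 to 0.36. For the E2 contrast in Fib_0 they were Cxcl1 -0.68 to 0.23, Cxcl2 -0.47 to 0.47 and Cxcr4 -0.27 to 0.29. For the E2 contrast in Fib_1 they were Cxcl12 -0.19 to 0.031. For the E2 contrast in Fib_2 they were Cxcl10 -1.11 to 0.54, Cxcl13 -0.51 to 0.45 and Cxcl9 -0.29 to 3.00. For the E2 contrast in Fib_3 they were Ackr3 -0.17 to 0.20, Cxcl12 -0.52 to 0.17 and Cxcl9 -1.47 to 4.91. For the E2 contrast in immune cells they were Cxcl12 -0.17 to 0.036, Cxcl16 -0.30 to 0.19, Cxcl9 -0.21 to 0.99 and Cxcr4 -0.069 to 0.097. For the E2 contrast in macrophages they were Ackr3 -0.43 to 0.39, Cxcl1 -0.38 to 0.46, Cxcl10 -0.56 to 0.34, Cxcl13 -1.001 to 3.17, Cxcl16 -0.22 to 0.23 and Cxcl9 -2.85 to 1.06. For the P4 contrast in Fib_0 they were Ackr3 -0.20 to 0.12, Cxcl12 -0.36 to 0.087, Cxcl14 -0.20 to 0.41 and Cxcr4 -0.16 to 0.83. For the P4 contrast in Fib_1 they were Cxcl16 -0.091 to 0.13 and Cxcl9 -0.39 to 1.27. For the P4 contrast in Fib_2 they were Ackr3 -0.29 to 0.48 and Cxcr4 -0.058 to 1.62. For the P4 contrast in Fib_3 they were Ackr3 -0.26 to 0.073, Cxcl1 -0.18 to 0.49, Cxcl14 -0.10 to 0.26, Cxcl16 -0.19 to 0.26 and Cxcl2 -1.63 to 1.13. For the P4 contrast in immune cells they were Cxcl1 -0.44 to 0.27, Cxcl10 -0.29 to 0.52, Cxcl12 -0.32 to 0.068 and Cxcl13 -2.57 to 0.88. For the P4 contrast in macrophages they were Ackr3 -0.12 to 0.23, Cxcl1 -0.18 to 0.67, Cxcl12 -0.066 to 0.22, Cxcl14 -0.19 to 0.92, Cxcl2 -0.043 to 0.55, Cxcl9 -1.19 to 2.13 and Cxcr4 -0.17 to 0.24. For Fib_2 against the other subsets they were Cxcl9 -0.12 to 0.74. For Fib_3 against the other subsets they were Cxcl9 -0.89 to 0.19.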

Other observations

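Cxcl10 was found in cells that the comparisons above do not cover. It stood at 200.3 CPM in the 137 B cells pooled over libraries, with UMIs in 43.8% of them (28.2% thinned to 5000 UMIs), against 146 CPM over all fibroblasts. Of these B cell UMIs 50% lay in 7 cells, and UMIs of the fibroblast gene Col1a1 were found in 73.7% of the B cells, at 1.83% of its fibroblast level. In endothelial cells 85 Cxcl10 UMIs gave 76.5 CPM but lay in 7 of 85 cells. Cxcl14 in epithelial cells (131 CPM pooled) came mostly from 1 cell, which held at least 50% of its 423 UMIs. Cxcl3, which draws neutrophils like Cxcl1 and Cxcl2, stood at 105 CPM in neutrophils and 53.2 CPM in T and NK cells, with 50% of its UMIs in 2 of 263 and 16 of 2188 cells, and Cxcl17 at 58.1 CPM in epithelial cells.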
